A study of Mus musculus with 8 samples.

Results

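Histones are the proteins around which DNA is wound, and most of their genes lie in clusters of near-identical copies named Hist1 to Hist4. The analysis covered every non-control probe of the array whose gene name begins with Hist1h, Hist2h, Hist3h or Hist4h. This gave 55 probes of 49 gene names, out of 55681 probes and 34797 names on the array. The RNA came from common myeloid progenitors (CMPs), bone marrow cells sorted by flow cytometry as lineage-negative, cKit-positive, Sca-1-negative, CD34-positive and low for the Fcγ receptor. All mice were untreated wild-type C57BL/6J animals. The 4 arrays of young mice (replicates 3, 4, 5 and 6) and the 4 arrays of old mice (replicates 2, 3, 4 and 5) are named here by age and replicate number. Young mice were 2 to 3 months old by the sample labels and 3 to 4 months old by the design text, and old mice were 22 to 24 or 22 to 26 months old. The study describes the mice as analysed individually but names fewer mice per age than there are arrays, and it does not say which arrays these were. The spread between the 4 arrays of an age may therefore in part be technical, and n below counts arrays.

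Each nucleosome is wound around the core histones H2A, H2B, H3 and H4, and the linker histone H1 binds the DNA between nucleosomes. The cluster genes are transcribed mainly in S phase, when newly copied DNA needs histones. Their mRNAs have no poly(A) tail as a rule and end in a short hairpin, which is bound by the stem-loop binding protein Slbp and after which the transcript is cut. Some cluster genes also give longer transcripts with a poly(A) tail. This matters for the measurement, because the labelling kit used here copies RNA from a primer that pairs with poly(A).

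A probe can lie before, on or beyond this hairpin. A search for GG and 4 further bases, a loop of 4 bases and the reverse complement of those 6 bases found a whole hairpin of 16 bases in 6 of the 55 probes. The same rule was met by 38 of the other 55626 probes (0.0683%), but none of these held 1 of the 3 hairpin sequences found in histone probes. In 5 probes the hairpin was followed by only 3 to 6 bases. The last 30 bases of these probes are shown 5′ to 3′, with the hairpin in capitals, because they cover the end of the mature histone mRNA:
Hist1h3a: aattaaccaaaGGCTCTTTTCAGAGCCaca
Hist1h3g: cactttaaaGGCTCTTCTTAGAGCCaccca
Hist1h3i: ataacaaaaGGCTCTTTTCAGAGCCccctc
Hist1h4m: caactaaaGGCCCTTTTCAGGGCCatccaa
Hist2h2bb: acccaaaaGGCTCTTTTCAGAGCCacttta

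The probe of Hist1h2ab ended inside the hairpin, with 11 of its bases. Another pair of probes began at the hairpin and lay mostly beyond it, where a transcript cut after the hairpin has no sequence. A probe that lies wholly beyond the hairpin holds none of its bases and would not be found by this search. Hist2h2aa1 had 38 bases beyond the hairpin, and Hist1h2ae began inside the hairpin and had 48 bases beyond it. Their first 30 bases are shown for contrast:
Hist2h2aa1: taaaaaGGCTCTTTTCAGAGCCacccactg
Hist1h2ae: CTTTTCAGAGCCattcacttaattcagtaa

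Other probes lay in the coding part, where the copies of a histone type are almost alike. Of the 55 probes, 14 listed 2 to 4 RefSeq genes in the array's annotation, 38 listed 1 and 3 listed none. The array lists few accessions per probe, so these numbers are lower limits. Several genes were listed for Hist1h2af, Hist1h2ah, Hist1h2ak (A_55_P2084652), Hist1h2an, Hist2h2aa2, Hist1h2bm, Hist1h2bq, Hist1h3d, Hist2h3b, Hist1h4c, Hist1h4d, Hist1h4j and both probes of Hist1h4k. The H2A probes that ended at the stop codon show how far the copies differ. In 5 of the 6 such sequences, given below, capitals mark the bases that differ from the Hist1h2ak probe in the best overlap without gaps:
Hist1h2ak: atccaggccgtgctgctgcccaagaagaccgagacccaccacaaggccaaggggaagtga
Hist1h2af: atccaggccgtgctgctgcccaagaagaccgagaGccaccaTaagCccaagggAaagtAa
Hist1h2an: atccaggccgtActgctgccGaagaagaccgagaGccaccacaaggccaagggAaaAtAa
Hist1h2ah: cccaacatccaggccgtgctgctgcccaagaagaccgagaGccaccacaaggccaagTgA
Hist2h2aa2: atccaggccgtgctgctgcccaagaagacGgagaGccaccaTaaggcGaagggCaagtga

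Hist1h2ah differed from Hist1h2ak at 3 of 54 overlapping bases, and Hist1h2an differed at 6 of 60. The probe not shown, Hist2h2ac, was the least alike and differed at 16 of 57 under the same rule, which allows no gaps. The probe of H2afj, an H2A variant outside the clusters, shared a run of at least 20 bases with 5 H2A probes. The signal of such a probe can be a sum over several copies, and the values below belong to the probe and not to 1 gene of the group.

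The 75th percentile of the signal ran from 352 to 565 at the young age and from 290 to 518 at the old age, with the lowest value on old 4. Between 55.6% and 63.2% of all probes were well above background, and no spot was saturated. Kit and Cd34, which belong to the CMP gate, were well above background on all 8 arrays. Slide 1 held young 3, young 4, old 2 and old 4, and slide 2 held the other arrays. Signals are given as log2 of the signal minus the log2 of the array's 75th percentile, so that 0 is the level of the 75th percentile. Such levels can be compared between arrays for 1 probe but not between probes. Differences are old minus young on this log2 scale, with 95% intervals and with p-values adjusted over all 33476 probes tested by limma. Of the 55 histone probes, 53 probes of 48 gene names were well above background on at least 4 arrays and were tested.

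The first comparison asks whether the RNA of cluster histones differed between CMPs of old and young mice. A probe counted as called if its change was 1.5-fold or more and its adjusted p lay under 0.05. No histone probe was called, compared with 0.191% of all probes tested, and the lowest adjusted p of limma for a histone probe was 0.922. At an unadjusted p under 0.05, limma listed 0 of the 53 probes, compared with 6.35% of all probes. The differences lay between -0.20 for Hist1h4h and 0.80 for Hist3h2ba. Their median was 0.12, compared with -0.02 over all probes tested. The value in old mice was above that in young mice for 43 of the 53 probes (81.1%), against 46.8% of all probes tested. This excess of higher values rested on old 4. Without that array, 22 of the 53 probes were higher in old mice (41.5%, against 46.0% of all probes) and the median difference was -0.05, whereas leaving out old 2 raised it to 0.27. Within slides the median difference was 0.18 on slide 1, which holds old 4, and -0.05 on slide 2. The intervals excluded a 2-fold change of the signal in either direction for 45 of the 53 probes, but a 1.5-fold change for only 11. H2A probes made up 14 of these 45 and 7 of these 11. Whether the signal of the brightest H2A probes follows the amount of RNA was not tested. With bulk RNA, a change in the number of cells in S phase and a change in histone RNA per cell cannot be told apart.

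**Figure D1:**
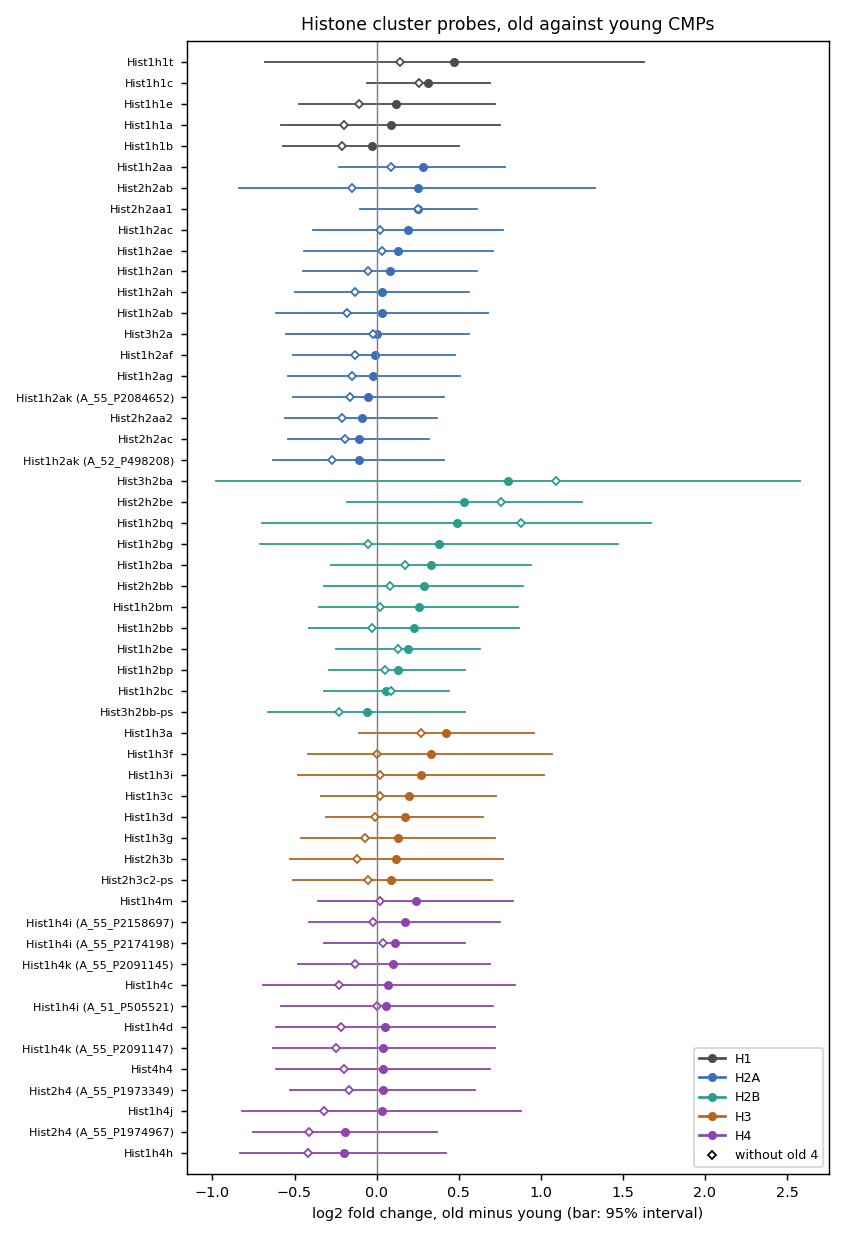
Difference between old and young CMPs for each of the 53 histone cluster probes tested, by histone type (x axis: log2 fold change, old minus young; filled circle: estimate from 8 arrays; bar: 95% interval; open diamond: difference of means without old 4). Every interval includes 0, and most diamonds lie to the left of their circles.

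Among the linker histones, the 5 tested H1 probes had a median difference of 0.12, and of -0.11 without old 4. Hist1h1c, which encodes linker histone H1.2, lay at chr13:23832018-23832077 (plus strand, mm9). It measured 1.03, 0.92, 1.01 and 0.89 on young 3, 4, 5 and 6, and 1.11, 1.11, 1.43 and 1.45 on old 2, 3, 4 and 5. All 4 old arrays were above all 4 young arrays. The means were 0.96 ± 0.07 (SD, n = 4) and 1.27 ± 0.19, with a difference of 0.31 (95% interval -0.06 to 0.69; limma adjusted p = 0.922). The difference was alike on both slides, at 0.30 and 0.33.

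Arrays of the ages did not overlap, with the old arrays higher, for 2 of the 53 probes (3.77%), which is close to the 2.86% among all probes tested. The other such probe was Hist2h2aa1, which encodes an H2A and whose probe at chr3:96049949-96050008 (plus strand, mm9) runs past the hairpin. It measured 1.05, 1.08, 0.92 and 1.13 on young 3 to 6 and 1.46, 1.21, 1.30 and 1.21 on old 2 to 5. The difference was 0.25 (95% interval -0.10 to 0.61; limma adjusted p = 0.985), and leaving out old 4 gave the same 0.25. In both probes old 4 was within the range of the other old arrays.

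The remaining H1 probes showed the spread that was typical of the clusters. Hist1h1e, which encodes H1.4, measured 7.33, 7.07, 7.63 and 7.38 on young 3 to 6 and 6.95, 7.41, 8.19 and 7.37 on old 2 to 5. The old arrays thus included both the lowest and the highest value, and the difference of 0.12 turned to -0.11 without old 4. Hist1h1b, which encodes H1.5, had the lowest difference of this type, at -0.03 (95% interval -0.57 to 0.50). Hist1h1t, the testis form of H1, had the highest, at 0.47 (95% interval -0.68 to 1.63; limma adjusted p = 0.998). It measured -0.68, -1.26, -2.17 and -1.93 on young 3 to 6 and -2.09, -1.80, -0.02 and -0.22 on old 2 to 5. Here old 4 and old 5 lay above every young array, and old 2 and old 3 lay among them.

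Differences of the 15 H2A probes were small, with a median of 0.03 and a range of -0.11 to 0.28. Hist1h2ah, whose probe listed 4 genes, measured 9.99, 9.51, 10.11 and 9.69 on young 3 to 6 and 9.49, 9.98, 10.33 and 9.62 on old 2 to 5. The ages overlapped throughout, with a difference of 0.03 (95% interval -0.50 to 0.56). The value was highest on old 4, where the 75th percentile was lowest (290), and low on young 4, where it was highest (565). Before the shift, the signal of this bright probe varied less between arrays than the percentile did. Whether such bright H2A probes still follow the amount of RNA was not tested, so their small differences need not mean unchanged RNA. Hist1h2aa, a testis form of H2A, had the highest difference, at 0.28 (95% interval -0.23 to 0.78). Hist1h2ak had 2 probes. The probe A_52_P498208, which listed 1 gene, had the lowest difference, at -0.11 (95% interval -0.63 to 0.41), and the probe ending at the stop codon gave -0.05.

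The 12 H2B probes had a median difference of 0.27, with 11 of them higher in old mice. The median was 0.08 without old 4. Hist3h2ba had the highest difference of all histone probes, 0.80 (95% interval -0.98 to 2.58; limma adjusted p = 0.998). It measured -2.14, -2.91, -6.07 and -4.59 on young 3 to 6 and -2.45, -2.18, -3.99 and -3.89 on old 2 to 5, and it was not well above background on 1 of the young arrays. Young 3 was the highest array and young 5 the lowest, so that the old arrays lay within the range of the young ones. Hist2h2be measured -2.49, -2.53, -1.67 and -1.64 on young 3 to 6 and -1.35, -1.63, -2.23 and -0.98 on old 2 to 5, with a difference of 0.53 (95% interval -0.18 to 1.25; limma adjusted p = 0.965). In this probe old 4 was the lowest of the old arrays. Hist1h2bm, whose probe listed 4 genes, had a difference of 0.26 (95% interval -0.35 to 0.86), and Hist3h2bb-ps, a pseudogene, had the lowest, at -0.06.

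All 8 H3 probes were higher in old mice, by 0.09 to 0.42 with a median of 0.18, and the median was 0.00 without old 4. Hist1h3a, whose probe covers the hairpin, measured 0.85, 1.14, 1.19 and 1.47 on young 3 to 6 and 1.69, 1.56, 2.04 and 1.06 on old 2 to 5. Here 3 of the 4 old arrays lay above all young arrays and old 5 lay among them, with a difference of 0.42 (95% interval -0.11 to 0.96; limma adjusted p = 0.943). Hist1h3d, whose probe listed 4 genes, had a difference of 0.17 (95% interval -0.31 to 0.65). The pseudogene Hist2h3c2-ps had the lowest of this type, at 0.09.

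The 13 tested H4 probes had a median difference of 0.05, and of -0.20 without old 4. Hist1h4k, whose probe A_55_P2091145 ended at the stop codon and listed 4 genes, measured 8.78, 8.58, 8.85 and 8.86 on young 3 to 6 and 8.27, 8.77, 9.57 and 8.86 on old 2 to 5. Old 2 was the lowest and old 4 the highest of all arrays, and the means were 8.77 ± 0.13 (SD, n = 4) in young and 8.87 ± 0.54 in old mice. The difference was 0.10 (95% interval -0.48 to 0.69). Hist1h4m had the highest difference of this type, at 0.24 (95% interval -0.36 to 0.83), and Hist1h4h the lowest, at -0.20 (95% interval -0.83 to 0.42).

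By cluster, the median difference was 0.13 for the 39 tested probes of Hist1 on chromosome 13 and 0.11 for the 10 probes of Hist2 on chromosome 3. It was 0.00 for the 3 probes of Hist3 on chromosome 11. The tested probe of Hist4 on chromosome 6, Hist4h4, gave 0.04. Gene names with several tested probes gave like values, with differences that lay 0.06 apart for Hist1h4k and Hist1h2ak, 0.11 apart for the 3 probes of Hist1h4i and 0.23 apart for Hist2h4.

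**Figure D2:**
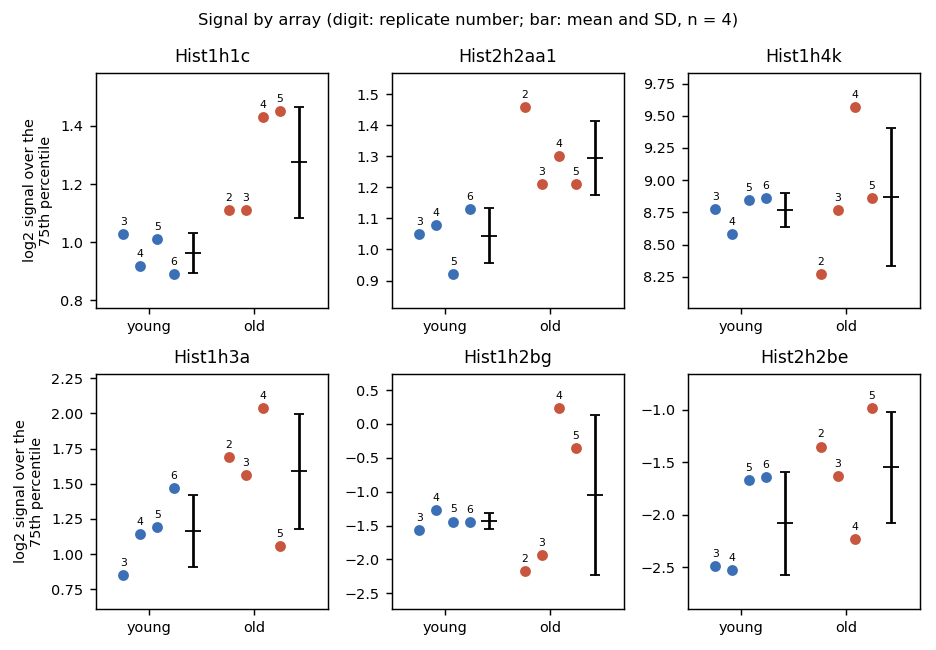
Log2 signal over the 75th percentile for 6 histone probes (y axis) in young and old CMPs, 1 point per array with its replicate number, and the mean with SD (n = 4) beside each age. Hist1h4k is its probe A_55_P2091145. The ages do not overlap for Hist1h1c and Hist2h2aa1, whereas old 4 is the highest array for Hist1h4k, Hist1h3a and Hist1h2bg and the lowest old array for Hist2h2be.

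The larger differences in the data were between arrays of the same age. The median SD of the histone probes was 0.27 in young and 0.47 in old mice, whereas it was 0.33 at both ages over all probes tested. Without old 4 it was 0.28 in old mice. Old 4 was the highest of the 8 arrays for 39 of the 53 histone probes (73.6%), against 18.2% of all probes tested. Old 2 was the lowest for 22 of them (41.5%), against 18.7%. Relative to each probe's mean over the 8 arrays, the median histone probe stood at -0.04, -0.24, -0.04 and 0.01 on young 3 to 6 and at -0.33, -0.01, 0.60 and 0.00 on old 2 to 5. The corresponding medians over all probes tested lay between -0.04 and 0.06. Old 4 was the highest array for 4 of 5 H1, 10 of 15 H2A, 7 of 12 H2B, 7 of 8 H3 and 11 of 13 H4 probes.

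**Figure D3:**
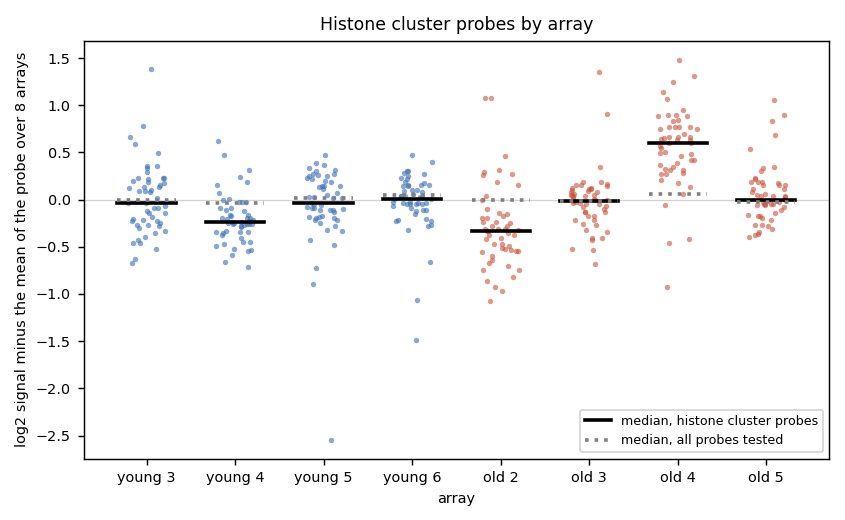
Deviation of each of the 53 tested histone probes from its own mean over the 8 arrays (y axis, log2), by array (x axis; blue, young; red, old). The black line is the median of the histone probes, which reaches 0.60 on old 4 and -0.33 on old 2, and the dotted line is the median of all probes tested, which stays between -0.04 and 0.06.

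The pattern remained under other scalings, although its size changed. Old 4 had the lowest 75th percentile (290, against 352 to 565 on the other arrays). Each of these scalings also brings the arrays to a common level. They therefore cannot show what part the scaling itself has in the pattern, which was not tested. Old 4 was the highest array for 41 histone probes after normexp background correction, for 33 after quantile normalization and for 32 after a shift to the median. The corresponding shares of all probes were 28.5%, 14.1% and 9.15%. The share also depended on the level of the probe. Among probes with a mean log2 signal of 5 or more, old 4 was the highest array for 37.0% of all probes and for 17 of 19 histone probes. Between 0 and 5 it was the highest for 8.79% of all probes and for 14 of 20 histone probes, and below 0 for 21.2% and for 8 of 14.

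The lists of other genes of histone supply and of the cell cycle are given for comparison. Over 29 tested S phase genes, the median deviation on old 4 was -0.11, and on the other arrays it lay between -0.24 and 0.19. Old 4 was the highest array for 2 of these 29 genes and for 0 of 14 genes of G2 and mitosis. It was the highest for 0 of 18 genes of the histone chaperone list and for 0 of 13 histone variants encoded outside the clusters. For the 15 genes of histone transcription and processing of the RNA end it was the highest for 2. Old 2 was the lowest array for 6 of the 14 genes of G2 and mitosis (42.9%), a share like that of the histone probes. It was the lowest for 1 of the S phase genes and for 2 genes of the chaperone list. For the histone variants and the genes of histone transcription and RNA ends it was the lowest for none. Pcna, the sliding clamp of DNA replication, measured 5.89, 6.18, 5.72 and 5.99 on young 3 to 6 and 6.15, 5.81, 5.96 and 5.94 on old 2 to 5. Slbp, which binds the hairpin, measured 0.38, 1.01, 0.64 and 0.89 on young 3 to 6 and 1.32, 1.05, 0.20 and 1.25 on old 2 to 5, so that old 4 was the lowest array. Npat, which activates histone genes in S phase, measured -4.50, -4.66, -5.47 and -4.61 on young 3 to 6 and -4.80, -4.42, -3.61 and -3.73 on old 2 to 5. Old 4 was its highest array, close to old 5, at a dim signal that was well above background on 7 arrays.

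The excess on old 4 was also set against the place of the probe. It is given here as the log2 signal on old 4 minus the mean of the other 7 arrays, and its median was 0.69 over the 53 histone probes and 0.07 over all probes tested. The 5 probes that end just after the hairpin ranged from 0.76 for Hist1h3a and Hist1h3g to 1.01 for Hist1h3i, with old 4 highest in all 5. Hist1h2ab, which ends inside the hairpin, had 0.76. Both probes that begin at the hairpin and lie mostly beyond it were lower, at 0.15 for Hist2h2aa1 and 0.42 for Hist1h2ae. Old 4 was the highest array in neither. The 6 H2A probes that end at the stop codon ranged from 0.21 to 0.56, whereas Hist1h1e and Hist1h4k (A_55_P2091145), which also end there, had 0.88 and 0.86. The 37 tested probes at other places had a median of 0.69 and ranged from -1.06 to 1.69, which spans all these values. The search needed at least 10 bases of the hairpin, so probes wholly beyond it would be counted among these. Signal level differed too, with young means of 9.34 to 9.82 for these 6 H2A probes, 7.35 for Hist1h1e and 8.77 for Hist1h4k. The place of the probe, its signal level, its histone type and the copies it can bind vary together in so few probes that they cannot be told apart.

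Probes of the same gene name also differed. Hist1h4i, which encodes an H4, had 3 probes on the minus strand in mm9. The probe at chr13:22133139-22133198 measured 2.92, 2.16, 2.65 and 2.73 on young 3 to 6 and 2.30, 2.63, 3.35 and 2.88 on old 2 to 5, an excess of 0.74 on old 4. The probes further along in the direction of transcription, at chr13:22132679-22132738 and chr13:22132591-22132650, had 0.31 and 0.24, with young 3 as their highest array. The order of the arrays thus differed between probes of this gene name, which also differ in place and in GC content. The search found no hairpin in these probes. Whether the further probes lie beyond the hairpin, and so read a longer transcript, was not determined.

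At the low end, the signal on old 4 was below the mean of the other arrays for Hist1h2bq, Hist3h2ba, Hist2h2be and Hist1h2bc, by -1.06, -0.53, -0.47 and -0.07. The signal of Hist1h2bq on old 4 was not well above background, nor was it on 2 of the young arrays, so that its value has no exact size. All 4 encode H2B. Hist1h2bc was steady, between 2.90 on young 5 and 3.28 on young 4 and old 5, with 3.06 on old 4. At the high end stood Hist1h2bg, an H2B gene, with an excess of 1.69. It measured -1.57, -1.27, -1.44 and -1.45 on young 3 to 6 and -2.17, -1.93, 0.24 and -0.35 on old 2 to 5. Its SD was 0.12 in young mice (n = 4), and its old arrays lay on both sides of the young ones. Hist2h2ab, Hist1h1t and Hist1h3f followed, with an excess of 1.49, 1.43 and 1.31.

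**Figure D4:**
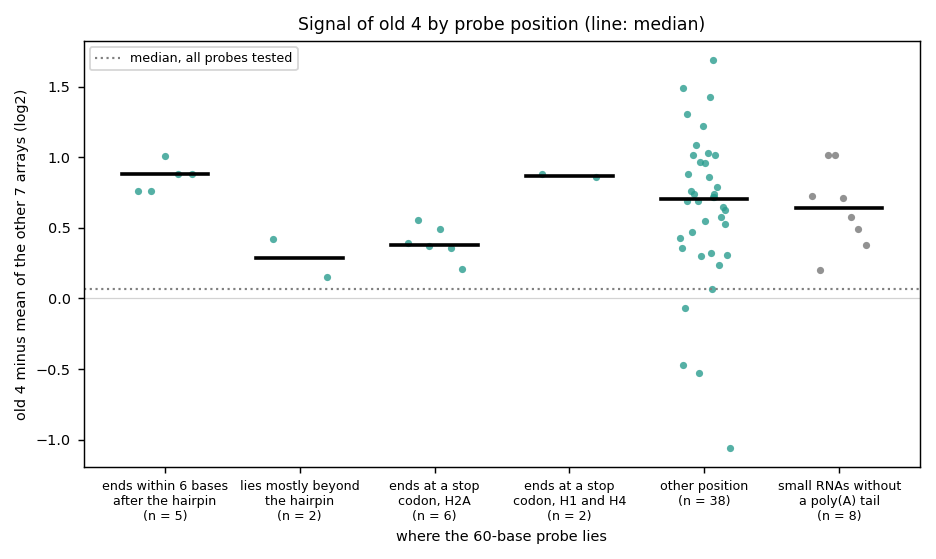
Log2 signal on old 4 minus the mean of the other 7 arrays (y axis), by where the 60-base probe lies (x axis, number of probes in brackets; black line, median of the class; dotted line, median of 0.07 over all probes tested). The 5 probes that end just after the hairpin lie between 0.76 and 1.01. Both probes that begin at it and lie mostly beyond it are at 0.15 and 0.42. Probes wholly beyond the hairpin could not be found and would be counted under other positions. Small RNAs without a poly(A) tail lie between 0.20 and 1.02.

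Some small noncoding RNAs on the array also have no poly(A) tail, and they were picked out after the pattern of the histone probes had been seen, so that their counts are a description and no independent evidence. These were Rnu1b6, Rnu2, Rnu3b1, Rnu12, Rmrp, Snora47, Snora74a and Terc, all well above background on all 8 arrays. Old 4 was the highest array for 6 of the 8, against 18.2% of all probes tested, and old 2 the lowest for 4, against 18.7%. The median excess on old 4 was 0.64. Rnu2, the RNA of a spliceosome particle, measured 2.48, 2.63, 3.15 and 2.79 on young 3 to 6 and 2.17, 3.11, 3.69 and 2.35 on old 2 to 5. Rnu3b1, which acts in the processing of ribosomal RNA, measured 3.05, 2.59, 2.80 and 2.79 on young 3 to 6 and 2.42, 2.71, 3.48 and 3.03 on old 2 to 5. The exceptions were Rnu1b6, which was equal to 2 decimals on young 6 and old 4, and Terc, which was highest on young 3. Malat1 and Neat1, long nuclear RNAs, were read with them and stood lower on old 4, at -0.86 and -0.90 relative to the mean of the other 7 arrays. Which of their transcripts the probes read, and whether these carry a poly(A) tail, was not tested. The part that labelling, RNA quality or the level of the 75th percentile has in the values of old 4 was not tested.

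In the lists of other genes of histone supply, no gene was called in either direction, compared with 0.191% of all probes tested. At so low a share, the absence of calls in lists of this size says little about these genes. The 15 genes of histone transcription and processing of the RNA end had a median difference of 0.15, with 13 higher in old mice, from -0.56 for Casp8ap2 to 0.67 for Npat (limma adjusted p = 0.846). Slbp gave 0.23. The 13 histone variants had a median of 0.04, from -0.50 for the testis linker histone H1fnt to 0.55 for the linker histone H1fx. The histone chaperone list of 18 genes, not all of which are chaperones themselves, had a median of 0.01, from -0.49 for Atrx to 0.40 for Ipo4. The 29 S phase genes had a median of -0.07, from -0.41 for Pola1 to 0.24 for Ccne2, with Pcna at 0.02. The 14 tested genes of G2 and mitosis had a median of -0.11, from -0.54 for Mki67 to 0.22 for Ccnb1.

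Markers of other cell types are given because they can move with the composition of the gate. All 14 megakaryocyte markers were higher in old mice, with a median of 1.14, and Gp9 was called (1.21, limma adjusted p = 0.0327). Their median deviation lay between -0.98 and -0.25 on young and between 0.39 and 0.71 on old arrays, with 0.39 on old 4 and 0.71 on old 2. Granulocyte and monocyte markers had a median of -0.42, with 9 of 11 lower in old mice, and their deviation was -0.42 on old 4 and 0.42 on old 2. The 7 tested stem cell markers had a median of -0.05 but went both ways, from -0.73 for Ly6a (limma adjusted p = 0.413) to 0.65 for Meis1 (limma adjusted p = 0.304). Ly6a encodes Sca-1, for which the cells were sorted as negative, so its level also depends on the gate. The medians were -0.12 for 10 erythroid and -0.17 for 9 lymphoid markers. Their part in the histone values was not tested.

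The promoters of the cluster genes were read from RefSeq (GRCm38.p6), from 250 bases before to 50 bases after each start. Of the member genes whose probe listed 1 RefSeq gene, 30 had a promoter in the table, with 31 windows. CCAAT on either strand was found in 27 of the 31 windows (87.1%, against 37.4% of all promoters) and TATAAA in 20 (64.5%, against 13.6%). All H1, H2A, H2B and H3 windows held CCAAT, but 0 of the 4 H4 windows did. The octamer ATTTGCAT was found in 11 (35.5%, against 1.74%), which were 6 of 10 H2A and 5 of 8 H2B windows and 0 of the 13 H1, H3 and H4 windows. Hist1h2bg and Hist1h2ae lie head to head and share 279 of the 300 bases of their windows. A motif in such a shared stretch was counted for both genes, so the counts are of windows and not of separate sites. The stretch below lies before the starts of both genes and is shown for its motifs. It covers chr13:23571300-23571399 on the plus strand in GRCm38.p6, the 100 bases before the start of Hist1h2bg, with the octamer and TATAAA in capitals:
Hist1h2bg: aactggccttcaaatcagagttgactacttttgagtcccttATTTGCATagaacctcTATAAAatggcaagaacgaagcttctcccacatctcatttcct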

How the data were processed

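CMP RNA was measured on 1-colour arrays, with 4 arrays at each age. The study's methods give 3 mice per age without naming their arrays, so all 8 arrays were used and n counts arrays. The authors labelled 0.1 µg of RNA per sample and read the arrays with Agilent Feature Extraction 10.7.3.1. The deposited files give a background-corrected intensity per spot on a linear scale, with probe sequences and mm9 coordinates per the file headers. A table of log2 values for the series, which the authors deposited too, served as an alternative.

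The log2 of each intensity was shifted by the 75th percentile of its array, taken over 59305 non-control spots. Outlier spots were left out and spots of a probe were averaged. Probes well above background on at least 4 arrays (33476) were tested with limma 3.58.1 in R 4.3.3, with Benjamini-Hochberg adjustment over all of them. Called probes changed 1.5-fold or more with an adjusted p under 0.05. Other lists used the probe with the highest mean of each gene. The same limma step was also run on simulated data with known changes. Precision is limited by how many arrays there are and how far a signal stands above background.

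Gene names are those of the array. RefSeq names came from the array's accessions, of which 80 of 81 matched. The named probes are those called, those whose ages do not overlap, and for each histone type the probes with the highest mean, the highest and the lowest difference. In the other lists they are the called genes, the highest and lowest of each list, and Slbp, Npat and Pcna. Probes shown for the pattern on old 4 were chosen after their values were seen, and the small RNAs after the histone pattern was seen. The members and lists were chosen with earlier results of these data known. The alternatives were other background corrections, scalings, filters, fits and blocks, the methods' t-test, the series table and leaving out each array.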

Additional observations from a re-analysis of the deposited data

Results flagged for a closer look

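In 46 groups of 4 arrays checked for a single array that stands apart, 2 were found, and chance alone gives about 1 in 20 groups. The pseudogene Hist3h2bb-ps measured -3.54 on young 3, whereas the other young arrays lay between -3.82 and -3.80. The median deviation of the H1 probes was -0.20 on young 4, whereas it lay between -0.11 and -0.09 on the other young arrays.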

How the results depend on the processing

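No histone probe was called under any of the 21 alternatives, which are limma fits apart from the methods' t-test. The lowest adjusted p of a histone probe was 0.435, from limma with array weights. At an unadjusted p under 0.05, 0 probes were listed in the reported fit, against 6.35% of all probes tested. The count was 1 after normexp, after a shift to the median, without old 4 or without old 5, and 2 by the methods' t-test. The shares of all probes under these alternatives are not given here, so the counts are a description only. The median difference was 0.12 after normexp, 0.07 after quantile normalization, 0.04 with array weights, 0.15 in the series table and 0.24 after a shift to the median, which moved the median of all probes from -0.02 to 0.10. Leaving out 1 array at a time gave -0.05 (without old 4) to 0.27 (without old 2).

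Replicate numbers did not pair the arrays, since same-numbered arrays correlated at -0.09, -0.14 and 0.15 in their deviations from the age means. With the replicate number as a block, the difference comes from replicates 3, 4 and 5 alone. Old 2 and young 6 have no array of the same number at the other age and so add nothing to it. The median difference in this fit was 0.30 and 0 probes were called.

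Of 356 values for 17 named probes, 28 had the opposite sign, over 8 probes, and none passed an adjusted p of 0.05. Hist1h1b gave 0.09 after a shift to the median and 0.10 with the replicate block. Hist1h2ah gave -0.07 after normexp and -0.01 after quantile normalization. Hist1h2ak (A_52_P498208) gave 0.01 after a shift to the median and 0.12 with the replicate block. Hist3h2bb-ps gave 0.06 after normexp, quantile normalization or a shift to the median, 0.15 with the replicate block and 0.05 with array weights, and Hist1h4k gave -0.01 with array weights. With 1 array left out, the ranges were -0.21 to 0.09 for Hist1h1b, -0.11 to 0.30 for Hist1h1e, -0.13 to 0.15 for Hist1h2ah, -0.27 to 0.07 for Hist1h2ak, -0.23 to 0.18 for Hist3h2bb-ps, -0.01 to 0.27 for Hist1h3d, -0.05 to 0.27 for Hist2h3c2-ps and -0.13 to 0.30 for Hist1h4k. The causes were not tested. The limits are the 4 arrays per age, the probes shared by several copies and the spread that old 4 adds.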

Other observations

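A pair of histone probes was too dim to be tested. Hist1h1d, which encodes H1.3, was well above background on 3 of the 8 arrays and measured -7.13, -5.77, -6.52 and -4.40 on young 3 to 6 and -6.89, -6.72, -4.11 and -4.18 on old 2 to 5. The Hist4h4 probe A_51_P148860 was well above background on 0 arrays.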
